A study of Mus musculus with 8 samples.

Results

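Brain tissue of DEREG mice was compared with brain tissue of wild type (WT) mice, both 14 days after sham surgery, the operation without the stroke. The comparison held 2 of the 8 samples of the series, 1 array per genotype, and took every probe that the scanner software marked well above background in WT, in DEREG or in both. That left 36867 of 56605 probes (65.1%), which gave 16316 of the 22911 genes with a probe; 15630 of these genes were measured, meaning well above background, on both arrays. Where only 1 array measured a gene, its difference is a lower bound and is written with "at least". DEREG mice carry a bacterial artificial chromosome, a long piece of cloned genomic DNA, in which Foxp3 control sequences drive the diphtheria toxin receptor fused to green fluorescent protein. WT mice carry no such transgene. The labels used here do not give whether toxin was injected, the age or sex of the mice, how many animals went into a sample, or which genes beside Foxp3 the cloned piece holds. The RNA came from slice 3 of the side operated on, as whole tissue. A second pair of arrays from the same slice at day 14 after cerebral ischemia, again 1 WT and 1 DEREG, is given beside the sham pair and shares no array with it. Since each group is 1 array, the differences below have no replicate check and no test, and describe these libraries.

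Regulatory T cells (Treg) hold other immune cells in check, and the transcription factor Foxp3 keeps their identity. The toxin receptor of DEREG mice makes Treg sensitive to diphtheria toxin, which is why the strain is used to remove them. Resting brain tissue holds very few T cells, and most of its RNA comes from neurons, astrocytes, oligodendrocytes and microglia. After injury the astrocytes and microglia turn on acute phase proteins, chemokines, complement and interferon-inducible genes, and leukocytes enter from the blood.

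Both sham samples carried the markers of brain tissue: all 12 pan neuron genes, all 15 astrocyte genes and all 16 microglia genes of the marker lists were measured on both arrays. The share of probes well above background was 62.0% in WT sham and 64.2% in DEREG sham, no spot was saturated, and the median SD between the 10 spots of a repeated probe was 0.039 to 0.042 on the log2 scale. Signals below are the processed intensities divided by the array's 75th percentile and multiplied by the mean of the 4 percentiles (421), so that they can be compared between arrays for a probe but not between probes. A difference is the log2 signal of DEREG minus that of WT. For bright genes the scanner software's own error model gave an error of 0.20 for such a difference, as for Sgk1, and this error does not include the spread between animals.

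The 2 sham tissues were close to each other. Among the 15630 genes measured on both arrays, 97.6% lay within 1.5-fold, the median difference was -0.0088 and the SD of the differences was 0.21. Of these genes 44 (0.282%) had a difference of 2-fold or more with DEREG higher, and 18 (0.115%) with DEREG lower. Adding the lower bounds brought the counts among 16316 genes to 96 higher (0.588%) and 73 lower (0.447%). The same comparison after ischemia had an SD of 0.51, with 326 genes higher (2.02%) and 789 lower (4.88%) among 16172 measured on both arrays, and 398 (2.36%) and 905 (5.37%) with the bounds. Most of the 2-fold differences after sham lay among dim genes: 34 of the 44 higher and 16 of the 18 lower had a mean scaled signal under 100, where the SD was 0.35, against 0.11 at a mean signal of 1000 and above. Ccdc22 was the one gene at 1000 or above past 2-fold. Under normexp, another background correction that pulls dim signals together, the counts over all compared genes were 11 and 2: Lcn2, Plin4, Ppp1r3f, Ttr, Lrg1, Tgtp2, Ppm1n, Cytl1, Scgb3a1, S100a9 and Hif3a were higher, Cd72 and Olfr651 lower.

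**Figure D1:**
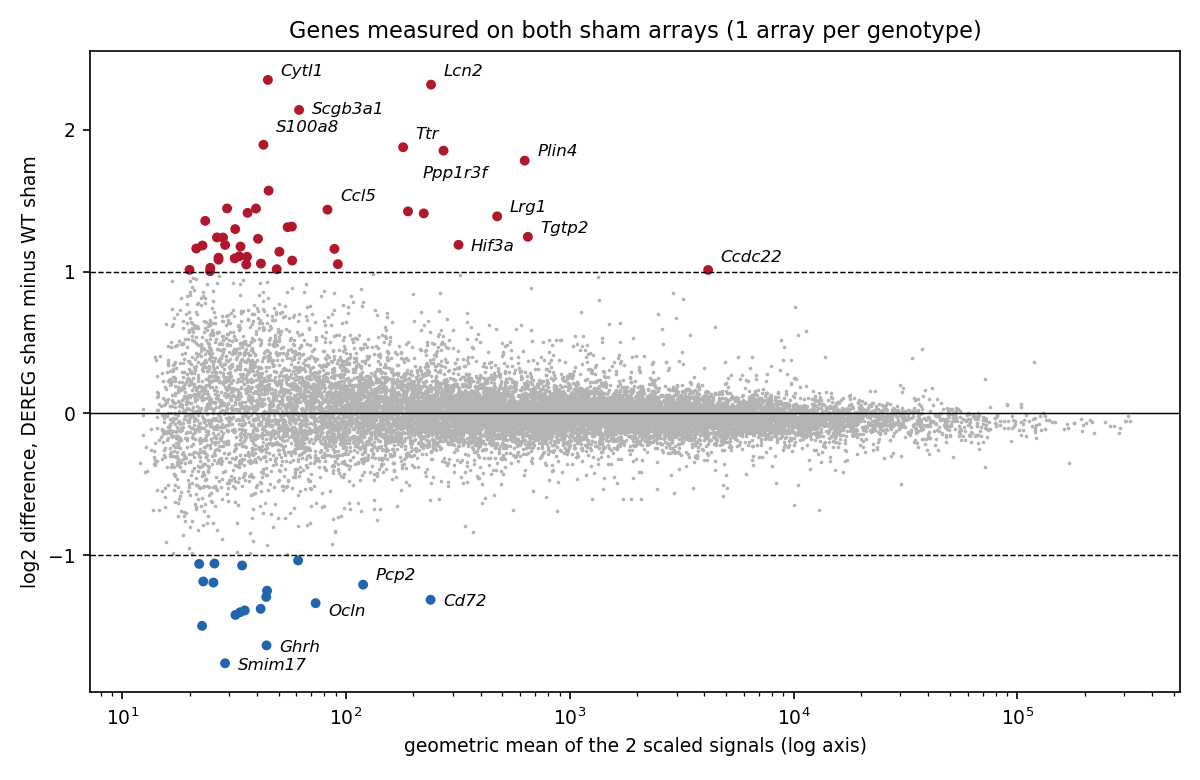
Log2 difference of DEREG sham minus WT sham (vertical axis) against the geometric mean of the 2 scaled signals (horizontal log axis), 1 point for each of 15630 genes measured on both arrays, with dashed lines at 2-fold. Red marks the 44 genes past 2-fold with DEREG higher and blue the 18 with DEREG lower; the cloud narrows to the right, where Ccdc22 is the only coloured gene above a signal of 1000.

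The genes beside Foxp3 on the X chromosome were higher in DEREG. Ppp1r3f, which encodes a subunit that guides protein phosphatase 1 to glycogen, had a scaled signal of 143 in WT sham and 519 in DEREG sham. This is a log2 difference of 1.85, or 3.61-fold. Its second probe gave 173 and 493, a log2 difference of 1.51, so that Ppp1r3f was one of 2 genes with several measured probes of which all were at least 2-fold higher (of 5761 such genes). Ccdc22, part of a complex that returns receptors from endosomes to the cell surface, had 2924 in WT sham and 5898 in DEREG sham, a log2 difference of 1.01. On the ischemia pair Ccdc22 read 2843 in WT and 5896 in DEREG, so both WT arrays and both DEREG arrays stood near each other and the genotypes apart, with a log2 difference of 1.05. Ppp1r3f read 96.8 in WT ischemia and 189 in DEREG ischemia, a log2 difference of 0.96.

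Between these 2 genes lie Foxp3 itself and Flicr, a long non-coding RNA known to lower Foxp3 expression. Flicr read 31.5 in WT sham and 51.9 in DEREG sham, a log2 difference of 0.72, and after ischemia it was below background in WT and read 31.7 in DEREG, at least 1.49 higher on the log2 scale. Foxp3 was not well above background on any of the 4 arrays, so its level gives no check of Treg number. Past Ppp1r3f, the next gene with a probe, the non-coding RNA 2010204K13Rik, read 4619 and 4632 after sham (log2 difference 0.0041). Past Ccdc22, Cacna1f was not well above background on any tissue array, so whether it shared the pattern cannot be told. Beyond it Syp, a synaptic vesicle protein, read 30792 and 31153 (log2 difference 0.02). Besides Ppp1r3f, Flicr and Ccdc22, 11 of the probed genes within 10 on each side of Foxp3 were measured on both sham arrays, Syp included. Their log2 differences ran from -0.15 to 0.20. After ischemia 12 of these neighbours were measured, from -1.27 to 0.39, with 2 genes past 2-fold, both lower in DEREG. The neighbours were looked up after the values of Ppp1r3f and Ccdc22 had been seen. Normexp gave log2 differences of 1.56 for Ppp1r3f, 0.97 for Ccdc22 and 0.20 for Flicr.

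**Figure D2:**
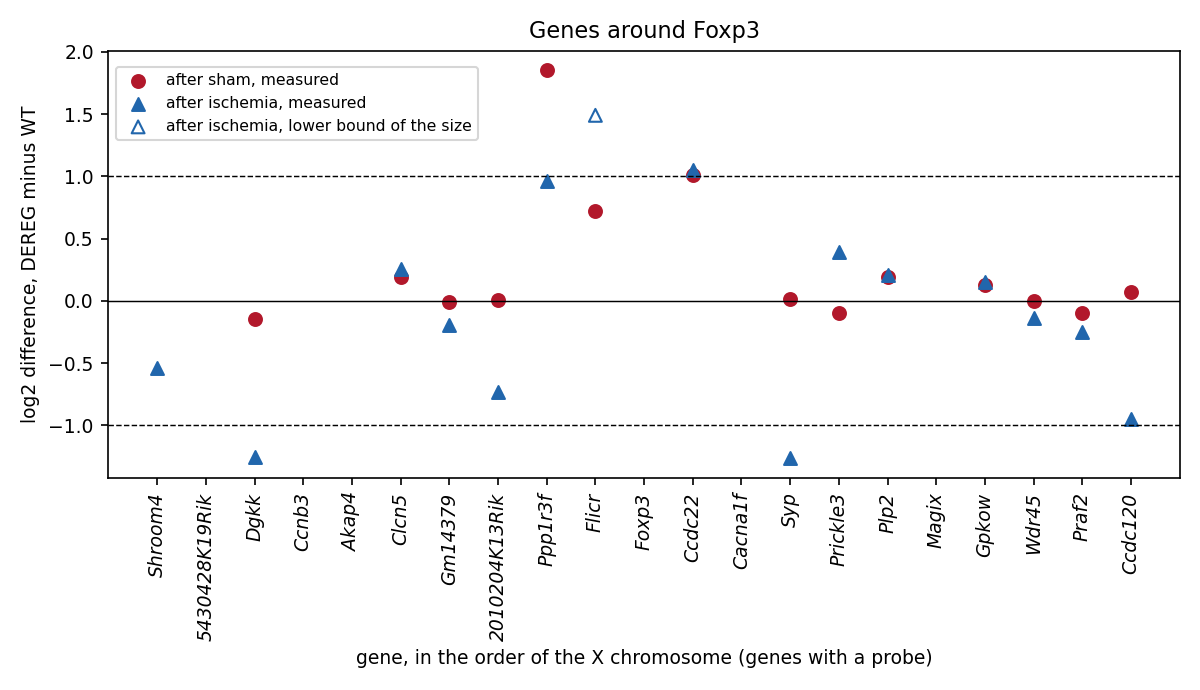
Log2 difference of DEREG minus WT (vertical axis) for the genes with a probe around Foxp3 in their order on the X chromosome (horizontal axis), after sham (red circles) and after ischemia (blue triangles), 1 array per group; open symbols are lower bounds, dashed lines mark 2-fold, and a gene without a symbol was not well above background on either array of a pair. Ppp1r3f and Ccdc22 stand at 1.85 and 1.01 after sham, while the 11 other measured neighbours apart from Flicr lie between -0.15 and 0.20.

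The promoters of the 2 neighbours are shown because both genes were higher in DEREG on both pairs of arrays. They are the 250 bases before the annotated start, 5′ to 3′ on the gene's strand, from RefSeq on GRCm38.p6, and capitals mark the CCAAT box (CCAAT, searched on both strands). Ppp1r3f (chrX:7574282-7574531, minus strand) had 3 matches, all on the opposite strand, and Ccdc22 (chrX:7605421-7605670, minus strand) had none in this window. The 32851 promoters of this length that were searched, called all promoters below, leave out a chromosome. Of these 33.8% hold the motif, and a match is a description of the letters only.
Ppp1r3f: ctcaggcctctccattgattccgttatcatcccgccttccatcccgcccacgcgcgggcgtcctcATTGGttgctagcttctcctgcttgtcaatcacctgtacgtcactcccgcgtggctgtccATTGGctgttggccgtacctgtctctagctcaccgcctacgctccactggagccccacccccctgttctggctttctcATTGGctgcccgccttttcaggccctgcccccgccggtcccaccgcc
Ccdc22: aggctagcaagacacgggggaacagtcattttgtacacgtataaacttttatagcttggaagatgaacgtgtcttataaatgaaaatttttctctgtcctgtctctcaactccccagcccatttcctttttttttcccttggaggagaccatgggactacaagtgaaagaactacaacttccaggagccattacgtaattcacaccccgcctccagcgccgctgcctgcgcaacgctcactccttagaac

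Several genes of neutrophils and of the acute phase were higher in DEREG sham. Lcn2, the iron-scavenging lipocalin made by neutrophils and reactive astrocytes, read 107.3 in WT sham and 536 in DEREG sham, a log2 difference of 2.32 (4.99-fold). S100a8 read 22.2 and 82.4 (log2 difference 1.90) and its partner S100a9 read 115 and 310 (1.43); together they form calprotectin, an abundant protein of neutrophils. Haptoglobin (Hp), which binds free haemoglobin, read 20.4 and 50.1, a log2 difference of 1.30, and Lrg1, a glycoprotein of the acute phase, 293 and 767 (1.39). All 5 genes were also at least 2-fold higher in DEREG on the ischemia pair, from far higher signals: Lcn2 read 14857 in WT and 39927 in DEREG, S100a9 6836 and 22671, and Hp 4005 and 18263.

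In the neutrophil marker list 7 of 9 genes were compared, 6 lay above 0 (48.1% of all compared genes did), 3 were at least 2-fold higher (0.588% of all compared genes), and none was 2-fold lower (0.447%). The median log2 difference of the list was 0.96 beside -0.0053 over all compared genes. Over the 4 genes measured on both arrays it was 1.66. These were Lcn2, S100a8, S100a9 and Camp, of which Camp had a log2 difference of only 0.22. Counts and medians of lists include bounds, whose sign follows from which array measured the gene. Here these were Retnlg, Mmp8 and Ltf, all measured in DEREG only. The bound was 0.31 for Mmp8 and 0 for Ltf. Ngp had no measured probe and Cxcr2 was not well above background on either sham array (2.47 and 2.16), while Retnlg was measured in DEREG only (23.5, at least 0.96 higher). The summed signal of the list after sham was 384 for WT and 1120.3 for DEREG, and after ischemia 24220 for WT and 69850 for DEREG. A sum leans on the brightest probes of its list, here Lcn2 and S100a9. In whole tissue more cells of a type and more RNA per cell cannot be told apart. Normexp left Lcn2 at 1.82, Lrg1 at 1.26 and S100a9 at 1.06 and moved S100a8 to 0.88, Hp to 0.56 and the median of the list to 0.22.

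The promoters of Lcn2 and S100a9 are printed as those of the group that hold the motif searched here; S100a8, with a larger difference than S100a9, has a promoter entry with no match, and so these sequences say nothing of the group. Capitals mark TTGCNNAA, a short form of the site bound by C/EBP factors, which are known for acute phase and myeloid genes; both strands were searched. Lcn2 (chr2:32387740-32387989, minus strand) had 1 match 216 bases before its start and S100a9 (chr3:90695722-90695971, minus strand) 1 match 236 bases before. The motif stood in 4 of the 36 promoters found for the 44 measured higher genes (11.1%) in 7.82% of the promoters of genes compared after sham and in 9.56% of all promoters. None of the 18 promoters of the measured lower genes held it.
Lcn2: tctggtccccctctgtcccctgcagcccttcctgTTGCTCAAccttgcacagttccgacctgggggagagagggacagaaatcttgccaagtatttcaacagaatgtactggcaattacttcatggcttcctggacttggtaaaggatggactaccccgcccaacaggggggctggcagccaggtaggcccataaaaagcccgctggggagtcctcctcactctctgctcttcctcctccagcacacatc
S100a9: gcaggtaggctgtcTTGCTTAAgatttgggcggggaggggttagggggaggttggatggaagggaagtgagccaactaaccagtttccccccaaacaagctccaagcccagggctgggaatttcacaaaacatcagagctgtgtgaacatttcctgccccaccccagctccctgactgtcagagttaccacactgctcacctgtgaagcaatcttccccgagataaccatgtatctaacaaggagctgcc

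Chemokines that call monocytes and T cells formed the next group. Ccl2, the main attractant of monocytes, read 17.8 in WT sham and 48.5 in DEREG sham, a log2 difference of 1.45. Ccl5, which attracts T cells, read 50.2 and 136 (1.44), and Cxcl10, an interferon-inducible attractant of T cells, 36.3 and 90.4 (1.32). Ccl12 read 63.8 and 132 (1.05). Ccl4, which attracts monocytes and T cells, read 59.3 and 133, a log2 difference of 1.16, and its second probe 24.8 and 50.01 (1.01), which made it the other gene of the 2 with every measured probe at least 2-fold higher. On the ischemia pair the same chemokines read from 4333 to 7300 in WT and from 8609 to 25777 in DEREG, with log2 differences of 1.80 for Ccl2, 1.82 for Ccl5, 1.68 for Cxcl10, 1.17 for Ccl12 and 0.55 for Ccl4.

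The list of inflammatory cytokines and chemokines was split. Of its 18 compared genes 4 were at least 2-fold higher (0.588% of all compared genes), namely Ccl2, Ccl4, Ccl5 and Ccl12. None was 2-fold lower (0.447%) and 11 lay above 0 (48.1%). The differences ran from -0.53 to 1.45, with a median of 0.23, or 0.067 over the 14 genes measured on both arrays. Normexp brought the log2 differences to 0.45 for Ccl2, 0.74 for Ccl4, 0.88 for Ccl5, 0.66 for Ccl12 and 0.57 for Cxcl10, all above 0 and none at 2-fold.

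T cell markers were mixed. Cd3d, a chain of the T cell receptor complex, read 17.2 in WT sham and 40.7 in DEREG sham (log2 difference 1.24) and 202 and 1424 on the ischemia pair (2.82). Cd8b1, a chain of the CD8 co-receptor, was not well above background in WT sham (10.8) and read 34.7 in DEREG sham, at least 1.52 higher. Another Cd3d probe, not above background on both arrays, read 12.5 and 16.7 (0.43). Of the 12 T cell markers 7 were measured on both sham arrays, with Cd3d alone past 2-fold and a median of 0.18; Cd3e, another receptor chain, had 0.063 and Cd4 -0.28. Their summed signal was 2090 in WT sham and 2045 in DEREG sham, against 2603 and 8382 on the ischemia pair. This sum, too, leans on the brightest probes. Sh2d1a, an adaptor of T and natural killer cells, was among the largest bounds, with 2.79 in WT sham, below background, and 61.7 in DEREG sham (at least 2.36 higher), but its other 2 probes were below background on both sham arrays (2.93 and 2.51, and 2.55 and 2.21). The lists of natural killer and CD8 effector cells and of B and plasma cells each had 4 genes compared. Gzma, a cytotoxic granule enzyme, was at least 1.09 higher in DEREG sham. The cytotoxic pore gene Prf1 had a measured log2 difference of 0.098 and the receptor gene Klrb1c one of -0.16. The Klrb1c probe used read 4379 and 3932 after sham and 1687 and 925 after ischemia. Its other 2 probes were below background on both sham arrays (2.77 and 2.40, and 2.48 and 2.14). The last of these read 24.5 in WT ischemia and 61.7 in DEREG ischemia. Of the B cell and plasma cell genes Cd79b, a chain of the B cell receptor, had -0.29 and Jchain, which joins antibody units, 0.56, with Pax5 and Mzb1 as bounds of 0.87 and 0.59. Normexp gave 0.26 for Cd3d.

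Of the 17 Treg core genes 8 were compared, none was at 2-fold, and the median was 0.080. Foxp3, Ctla4, Il10 and Areg were not well above background on any of the 4 arrays. Il2ra, the receptor chain that marks Treg and activated T cells, was below background on both sham arrays (5.91 and 4.96) and read 28.6 in WT ischemia and 104 in DEREG ischemia. Hbegf, the mouse gene whose human counterpart is the diphtheria toxin receptor, read 894 and 821 after sham, a log2 difference of -0.12; whether its probe reads the transgene was not tested.

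Interferon-inducible genes stood slightly but widely above WT. All 21 compared genes of the interferon list lay above 0, where 48.1% of all compared genes did, with a median log2 difference of 0.37. Past 2-fold was 1 gene, Cxcl10 (0.588% of all compared genes). Iigp1, an interferon-inducible GTPase, read 93.9 in WT sham and 186 in DEREG sham (0.98), and Gbp2, a guanylate-binding protein, 104 and 173 (0.73). Outside the list, Tgtp2, a GTPase of the same family as Iigp1, read 422 and 1001 (1.25), and its probe may also read the near-identical Tgtp1. Ch25h, the interferon-inducible enzyme that makes 25-hydroxycholesterol, read 136 and 363 (1.41). Nlrc5, the activator of MHC class I genes, read 14.3 and 32.0 (1.16, or 0.32 under normexp). After ischemia these genes were far brighter in both genotypes and the median of the interferon list was 0.97.

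Antigen presentation and complement genes followed. Of all compared genes 48.1% lay above 0 and 0.588% were at least 2-fold higher, the shares to set beside the counts of these lists. Of 17 genes of MHC class I and II, 16 lay above 0 and none was at 2-fold, with a median of 0.38. Cd74, the invariant chain of MHC class II, read 148 in WT sham and 265 in DEREG sham (log2 difference 0.84), and H2-Ab1, a class II beta chain, 175 and 264 (0.59, with 4 probes from 0.47 to 0.62). Of 15 complement genes, 14 lay above 0 with a median of 0.31: C4b, the abundant C4 of mouse brain, read 2112 and 3193 (0.60; 0.26 on its other probe), C3 76.7 and 119 (0.64; its other probe gave 0.24), and Cfb, which starts the alternative pathway, was measured in DEREG only (36.3, at least 1.496 higher). C4a and C4b are near-identical copies that probes may not separate. The reactive astrocyte list had 20 of 21 genes above 0, 2 at least 2-fold higher (Lcn2 and Cxcl10) and a median of 0.39; the copper-carrying oxidase Cp read 272 and 445 (0.71, with other measured probes at 0.61 and 0.026) and the astrocyte filament gene Gfap 650 and 855 (0.39). Under normexp the medians were 0.27 for interferon, 0.21 for MHC, 0.23 for complement and 0.24 for reactive astrocytes.

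Promoters of Cxcl10 and Tgtp2 are printed as those of a chemokine and of an interferon-inducible gene past 2-fold on both pairs. Capitals mark kappa B motifs (GGG, any 3 bases, then TTCC), interferon regulatory factor (IRF) motifs (GAAA, any 2 bases, then GAAA) and STAT motifs (TTCNNNGAA), searched on both strands, with no overlap between the matches. Cxcl10 (chr5:92348890-92349139, minus strand) had kappa B matches 159 and 104 bases before its start and an IRF match at 213. Tgtp2 (chr11:49064213-49064462, minus strand) had an IRF match at 70 and a STAT match at 81. Among the 36 promoters of the higher genes 4 held the kappa B motif (11.1%, against 4.65% of all promoters), 4 the IRF motif (11.1%, against 2.98%) and 5 the STAT motif (13.9%, against 7.02%). Among the 18 promoters of the measured lower genes 2 held the IRF motif, the same 11.1%, and none the kappa B or STAT motif. For the genes compared after sham the shares were 4.83%, 2.58% and 6.02%. The glucocorticoid receptor motif ACANNNTGT stood in 2 of them, Lcn2 included (5.56%, against 5.84% of all promoters and 4.08% of those of compared genes). No promoter sequence was read for 12 of the 44 genes, Ccl2, Ccl4, Ccl5, Hp, Nlrc5 and Ttr among them, and the motifs were picked after the values had been seen.
Cxcl10: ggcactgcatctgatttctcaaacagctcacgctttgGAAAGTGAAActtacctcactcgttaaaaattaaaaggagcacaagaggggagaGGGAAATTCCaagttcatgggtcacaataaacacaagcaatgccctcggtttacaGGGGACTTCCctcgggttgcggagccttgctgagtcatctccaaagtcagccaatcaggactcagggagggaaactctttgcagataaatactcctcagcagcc
Tgtp2: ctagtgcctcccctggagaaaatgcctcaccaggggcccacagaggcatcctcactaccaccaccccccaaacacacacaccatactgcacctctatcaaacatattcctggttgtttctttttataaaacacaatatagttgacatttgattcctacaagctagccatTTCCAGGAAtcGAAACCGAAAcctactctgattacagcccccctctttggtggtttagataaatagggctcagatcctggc

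**Figure D3:**
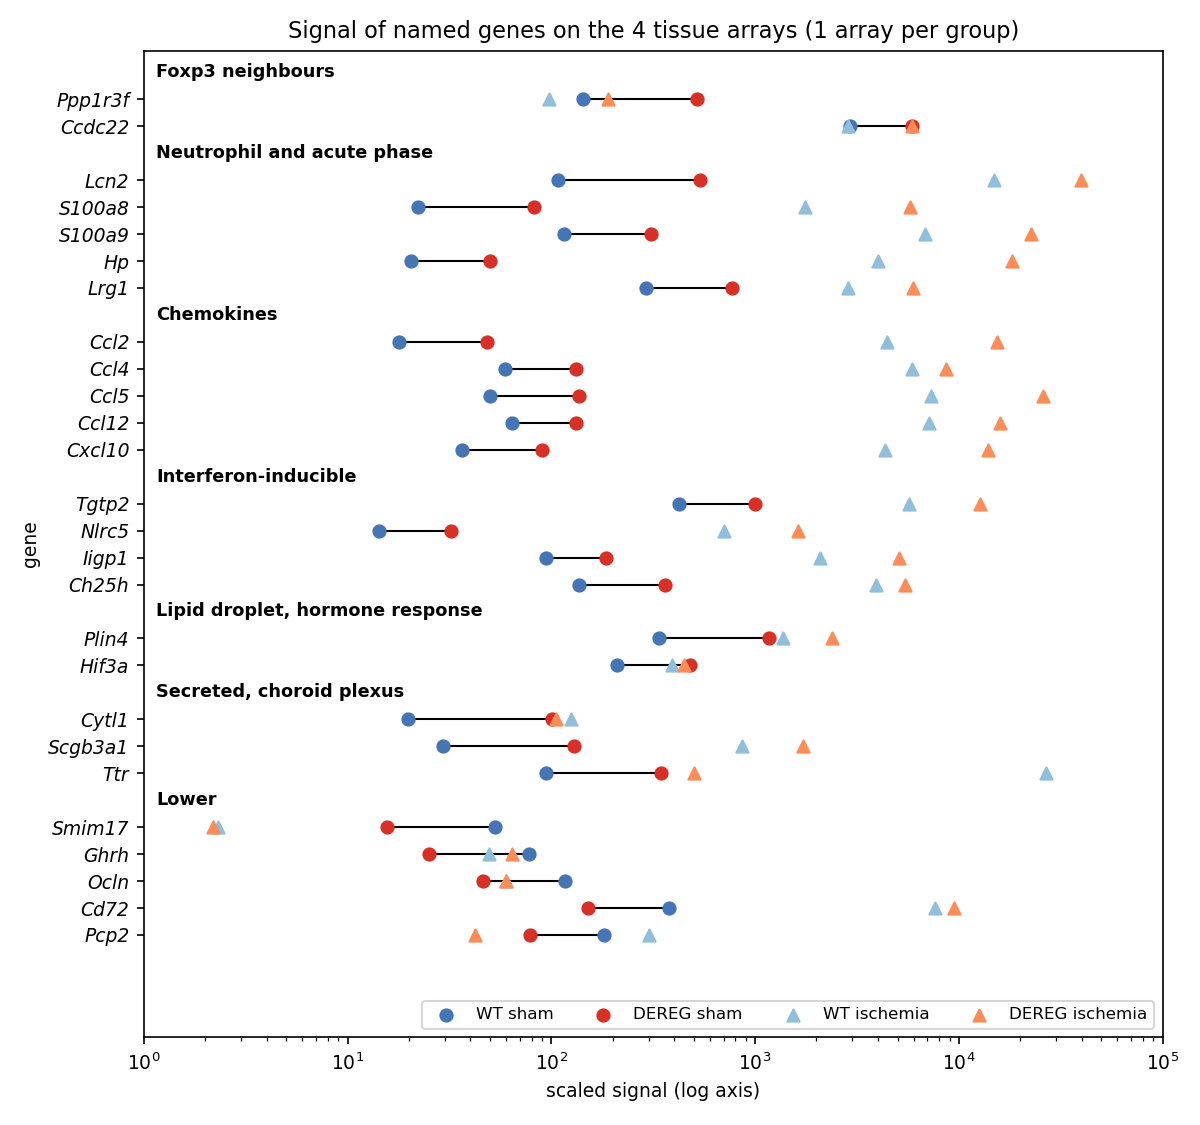
Scaled signal (horizontal log axis) of 26 named genes on the 4 tissue arrays, 1 array per group: WT sham (blue circle), DEREG sham (red circle), WT ischemia (light blue triangle) and DEREG ischemia (orange triangle), with a line joining the sham pair and values below background (Smim17 after ischemia) drawn as read. The neutrophil, acute phase, chemokine and interferon-inducible genes are brighter after ischemia than after sham with DEREG to the right of WT within each pair, whereas Ttr lies to the left of WT after ischemia (26706 and 499.8).

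Genes that respond to glucocorticoid hormone lay mostly above WT, with 3 past 2-fold. In that list 21 of 22 compared genes, all measured on both arrays, were above 0 (48.1% of all compared genes), 3 were at least 2-fold higher (0.588%), none was 2-fold lower, and the median was 0.37. Plin4, a perilipin that coats lipid droplets, read 339 in WT sham and 1167 in DEREG sham, a log2 difference of 1.78. Hif3a, a hypoxia-inducible factor subunit, read 211 and 481 (1.19), and Sgk1, a kinase induced by steroid hormone, 2159 and 3894 (0.85). The third gene past 2-fold was Lcn2, which also stands in the neutrophil and reactive astrocyte lists. Plin4 read 1363 and 2382 on the ischemia pair (0.81) and Hif3a 390 and 448 (0.20). Normexp pulls dim signals together, and Plin4, Hif3a and Sgk1 were not dim. It gave 1.61 for Plin4, 1.01 for Hif3a, 0.84 for Sgk1 and a median of 0.39 for the list.

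Immediate early genes, which neurons and other cells switch on within minutes of stimulation, were above WT in 25 of 28 cases (48.1% of all compared genes). Their median was 0.36 and none was at 2-fold. Fos read 490 and 754 (log2 difference 0.62), Nr4a1, an orphan nuclear receptor, 7808 and 13133 (0.75), and Atf3, a stress-induced transcription factor, 48.3 and 87.6 (0.86). On the ischemia pair their median was 0.12, with Nr4a1 at -0.53. Circadian clock genes lay above 0 in 15 of 18 cases, beside the same 48.1%, with a median of 0.22. The repressor Per1 read 9257 and 13831 (0.58), while Npas2, a partner of Bmal1 that drives the Per genes, was lower at 179 and 112 (-0.68). The clock time at which tissue was taken is not given in the labels used here. Of 24 heat shock and unfolded protein genes none was at 2-fold and the median was -0.074.

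Several secreted and barrier genes were among the largest differences. Cytl1, a small secreted cytokine-like protein, had the largest difference measured on both arrays, 19.8 in WT sham and 101 in DEREG sham (log2 difference 2.35), and read 124 and 105 on the ischemia pair (-0.24). Scgb3a1, a secretoglobin of epithelia, read 29.4 and 130 (2.14) and 866 and 1725 after ischemia (0.99). Ttr, the thyroxine carrier made by the choroid plexus, read 93.9 and 345 (1.88). On the ischemia pair Ttr stood at 26706 in WT and 499.8 in DEREG, a log2 difference of -5.74, so that WT ischemia was the array far above the other 3.

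Choroid plexus markers shared that pattern. Of 11 compared genes 10 lay above 0 after sham (48.1% of all compared genes) and none was 2-fold lower (0.447%). At least 2-fold higher were 3 (0.588%): Ttr, and as bounds Otx2 at 1.16 and Slc4a5 at 1.09. The other Otx2 probe was below background on both sham arrays (2.55 and 2.26). The median was 0.61, or 0.53 over the 9 genes measured on both arrays. Folr1, the folate receptor of the plexus, read 24.4 and 45.8 after sham (0.91) and 1568 and 168 after ischemia (-3.23). The median of the list was -2.43 on the ischemia pair. Of 13 genes compared there, 10 were at least 2-fold lower in DEREG (5.37% of all compared genes). At least 2-fold higher was 1 (2.36%), Aqp1 at 1.46. The summed signal of the list was 9808 for WT and 9668 for DEREG after sham, against 45751 and 9999 after ischemia. Such a sum leans on the brightest probes, and of the sham sums Ttr made up 93.9 and 345. How much plexus each slice held was not tested. Normexp gave 1.37 for Ttr and a median of 0.22 for the list after sham. Meningeal fibroblast markers had 10 of 12 genes above 0 and a median of 0.30, with Slc22a6, an organic anion transporter, at 383 and 577 (0.59) and the matrix protein gene Ogn at 242 and 346 (0.51). Collagen and matrix genes had 20 of 26 above 0 and a median of 0.16.

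Neuronal genes differed little, and those of the striatum were lower in DEREG sham. In the list of striatal projection neurons 15 of 18 genes lay below 0, where 51.6% of all compared genes did, with a median of -0.31 and none at 2-fold. Rxrg, a retinoid receptor, read 16443 in WT sham and 10273 in DEREG sham (log2 difference -0.68), and the sodium channel subunit gene Scn4b 35884 and 25366 (-0.50). The dopamine receptor Drd2 read 395 and 280.5 (-0.49). Normexp kept the median at -0.28. On the ischemia pair it was -0.94, beside -1.03 for pan neuron, -1.12 for cortical excitatory neuron and -0.98 for interneuron markers. The septal and cholinergic list was mixed, with a median of -0.11, 3 of 11 genes above 0 and none at 2-fold. Its lowest members were Slc5a7, the choline transporter, at 558 and 374 (-0.58, and -0.24 on its other probe) and Slc18a3, which loads acetylcholine into vesicles, at 1052 and 751 (-0.49). Its highest were the transcription factor gene Gbx1 (0.58) and the somatostatin receptor gene Sstr4 (0.49). Pan neuron markers had a median of -0.073 with 0 of 12 genes above 0, GABA and glycine receptors -0.11 with 0 of 18, and cortical excitatory neuron markers 0.014 with 11 of 19. Whether the slices were cut at the same level was not tested.

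None of the microglia, astrocyte, oligodendrocyte, endothelial and pericyte marker lists had a gene at 2-fold. Of all compared genes 48.1% lay above 0 and 51.6% below. Microglia markers lay below 0 in 13 of 16 cases, with a median of -0.18; P2ry12, the purine receptor of resting microglia, read 238 and 183 (-0.38) and Fcrls 619 and 486 (-0.35). Astrocyte markers had a median of -0.016 with 6 of 15 above 0, from Aqp4 (-0.27) to the angiotensinogen gene Agt at 2361 and 3768 (0.67). Pericyte and smooth muscle markers had a median of 0.15 with 6 of 11 above 0, and their highest members were contractile genes: Cnn1 read 120 and 192 (0.68), Tagln 1601 and 2319 (0.53) and Myh11 132 and 179 (0.44, with other probes at 0.63 and 0.90). Oligodendrocyte and myelin markers had a median of -0.0036. Endothelial markers had 0.10 with 7 of 12 above 0, from Kdr at 188 and 137 (-0.46) to Ly6c1 at 8671 and 12728 (0.55). Ly6c1 and Ly6c2 are close copies that probes may not separate. Cholesterol synthesis genes were below 0 in 14 of 17 cases, with a median of -0.20: Msmo1, a sterol oxidase, read 6082 and 4223 (-0.53) and Hmgcs1, which makes the precursor of mevalonate, 13591 and 10343 (-0.39). Of 4 globin genes measured 3 lay below 0 and none was at 2-fold, with a median of -0.36: Hba-a1 read 1728 and 1346 (-0.36) and Hbb-b1 had 0.064. Ribosomal protein genes had a median of -0.043, with 1 of 20 above 0.

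**Figure D4:**
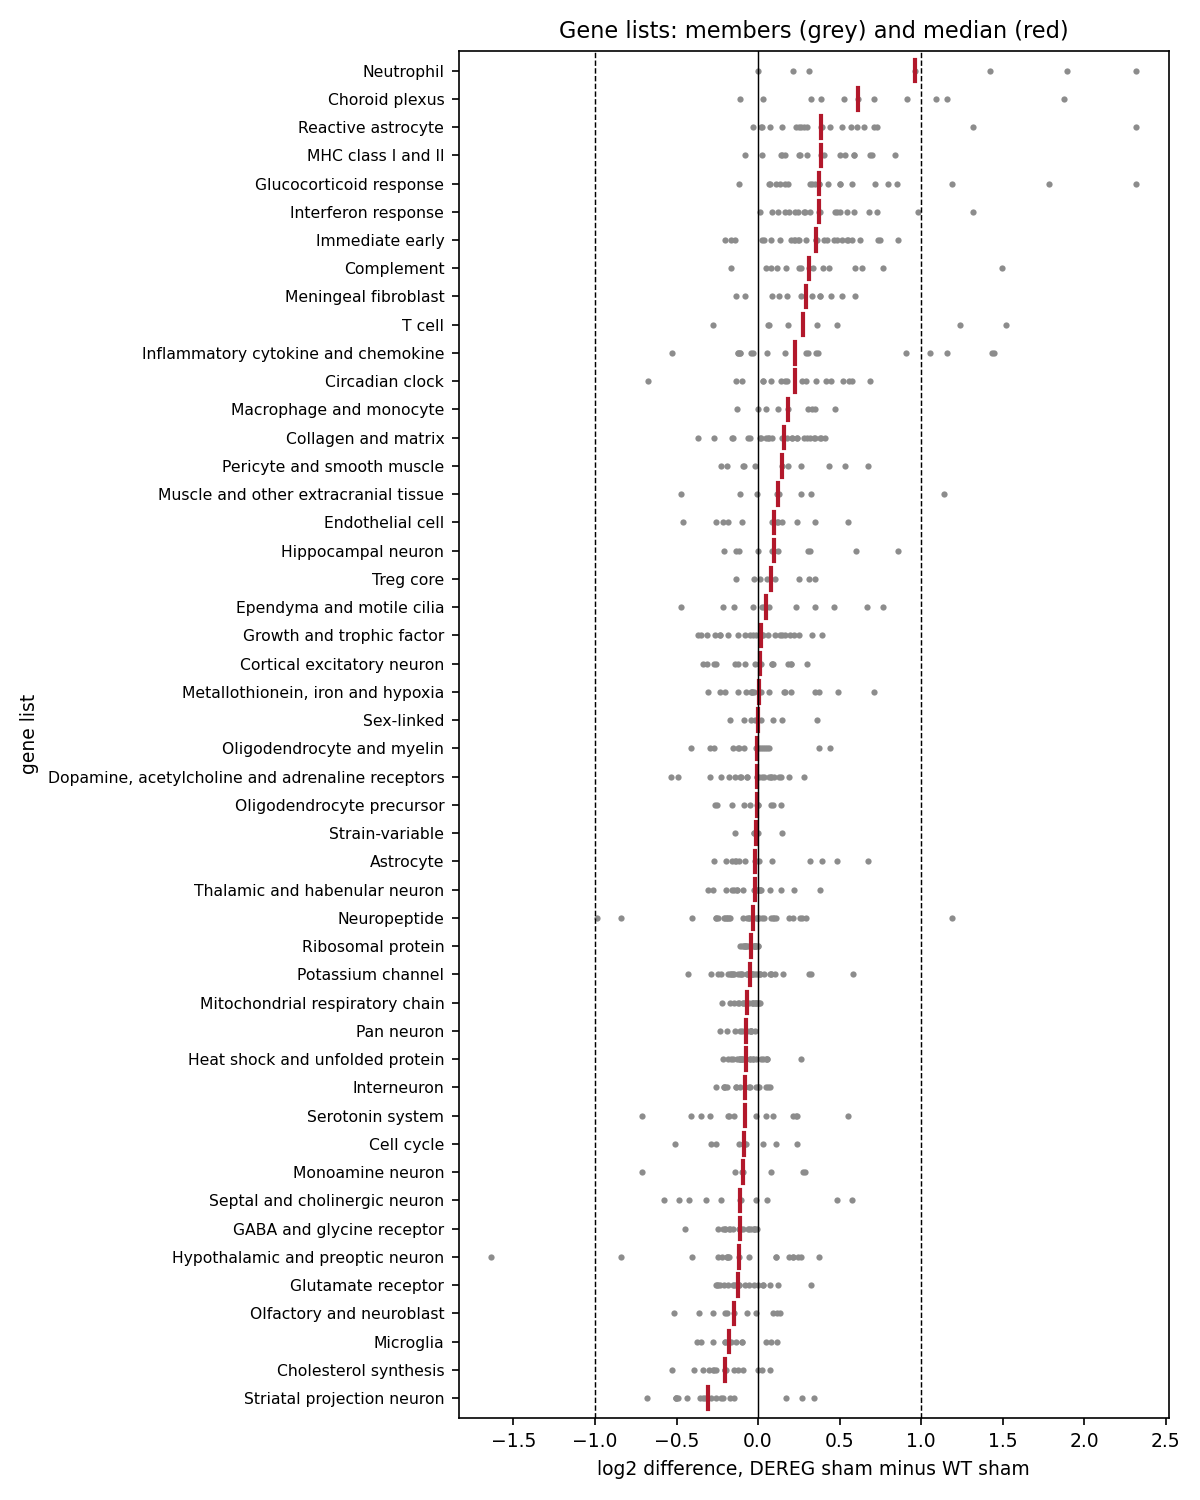
Log2 difference of DEREG sham minus WT sham (horizontal axis) for the members of each gene list with at least 5 genes compared (grey points, bounds included) and the median of the list (red bar), ordered by the median, with dashed lines at 2-fold; 1 array per genotype. Neutrophil (0.96) and choroid plexus (0.61) lists stand at the top and striatal projection neurons (-0.31) at the bottom.

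Genes measured on both arrays and lower in DEREG sham were 18 against 44 higher, while the bounds had 55 lower against 52 higher, and under quantile normalization the counts over all compared genes were 82 lower and 79 higher. Cd72, an inhibitory receptor of B cells also found on myeloid cells, was the one gene with several measured probes of which all were at least 2-fold lower: 376 in WT sham and 151 in DEREG sham on one probe (log2 difference -1.32) and 104 and 30.6 on the other (-1.76). On the ischemia pair Cd72 read 7615 and 9510 (0.32). Ocln, a tight junction protein, read 116 and 46.0 (-1.34) after sham and 60.1 and 59.9 after ischemia. Pcp2, known from Purkinje cells of the cerebellum, read 181 and 78.4 (-1.21) and was the one gene at least 2-fold lower on both pairs, with 302 and 42.1 after ischemia (-2.84). Smim17 had the lowest measured difference, 53.0 and 15.6 (-1.76).

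Other probes did not bear out every low value. Ghrh, the growth hormone releasing hormone of the hypothalamus, read 77.8 and 25.01 on the probe used (-1.64), while its other probe gave 0.095. Ttc23 had -1.38 on the probe used and up to 0.22 on its other probes. Ppp1r3e, another glycogen-guiding subunit of protein phosphatase 1, read 54.7 and 20.7 (-1.40), and Sprr2g, Prss54, Mpp4, Pcdh12, Clspn, Cdc42bpg and Bambi-ps1 lay between -1.50 and -1.04, all with 1 measured probe except Clspn, whose other probe gave -0.40. Normexp gave -1.07 for Cd72, -0.79 for Ocln, -0.76 for Pcp2, -0.72 for Ghrh and -0.67 for Smim17. Gpx6, a glutathione peroxidase, stood just inside 2-fold at 77.1 and 38.8 (-0.99).

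Bounds past 2-fold were found for 52 further genes with DEREG higher and 55 with DEREG lower. The largest were Ppm1n, a protein phosphatase, with 8.35 in WT sham, below background, and 89.1 in DEREG sham (at least 2.88 higher; its other probe was below background on both), and Slc36a2, an amino acid transporter, with 11.3 and 67.5 (at least 2.48). In the other direction Syna, the envelope-derived syncytin A of the placenta, read 196 in WT sham and 2.61, below background, in DEREG sham, a bound of -4.23 on the log2 difference, and C1qtnf9, a hormone of fat tissue, 188 and 2.62, a bound of -4.16. C1qtnf9 was not well above background on either ischemia array, and Syna read 29.8 in WT ischemia and 2.70, below background, in DEREG ischemia. Normexp gave log2 differences after sham of -0.35 for Syna and -0.22 for C1qtnf9, so the size of these 2 bounds depended on the background correction. For Ppm1n and Slc36a2 normexp gave 1.09 and 0.75. Myh4, a fast muscle myosin, and Gh, growth hormone, were measured in DEREG sham only, at 26.6 and 29.5. Of 15 genes of muscle and other extracranial tissue 8 were compared, 5 lay above 0 (48.1% of all compared genes), and Car3 was lowest (-0.47). The 6 measured on both arrays had a median of 0.055. Of 9 pituitary genes 4 were compared, and Prl, the other main hormone of that gland, read 16.7 in DEREG sham and was below background in WT sham (2.57). The 2 pituitary genes measured on both arrays were Lhb (0.22) and Pomc (-0.19), with a median of 0.016.

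The 2 genotype pairs overlapped among the higher genes. Of 15120 genes measured on all 4 arrays, 40 were at least 2-fold higher in DEREG after sham and 142 after ischemia (0.939%), and 14 were in both lists (0.0926%), which is 35% of the sham list and 9.86% of the ischemia list. These were Lcn2, S100a8, S100a9, Hp, Lrg1, Ccl2, Ccl5, Ccl12, Cxcl10, Cd3d, Tgtp2, Nlrc5, Ccdc22 and Prok2, a secreted peptide that signals through prokineticin receptors (19.1 and 43.5 after sham, 168 and 593 after ischemia). Of the 40 genes 31 had DEREG above WT after ischemia, where 58% of all genes measured on the 4 arrays did, and their median log2 difference after ischemia was 0.74 beside 0.065. Among the lower genes 15 were at least 2-fold lower after sham and 773 after ischemia (5.11%), with Pcp2 alone in both (0.00661%), and 4 of the 15 had DEREG below WT after ischemia, where 42% of all genes did.

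**Figure D5:**
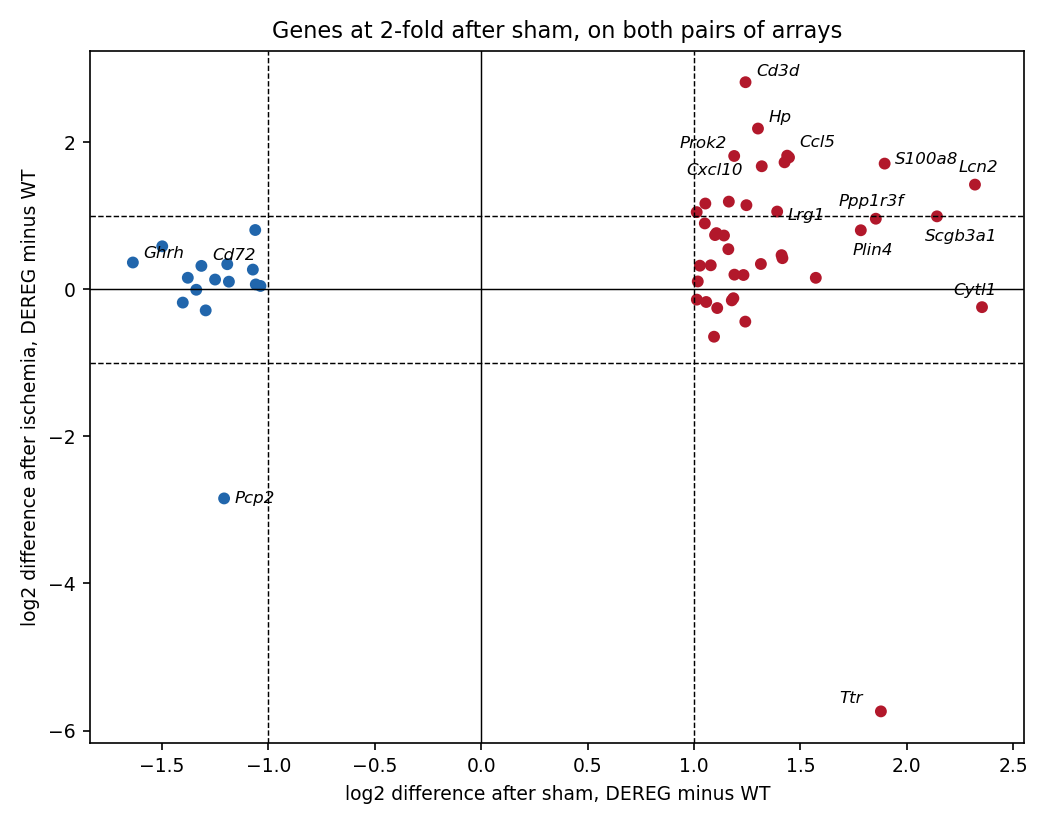
Log2 difference of DEREG minus WT after ischemia (vertical axis) against that after sham (horizontal axis) for the 55 genes measured on all 4 arrays and at 2-fold after sham, red where higher and blue where lower, 1 array per group; dashed lines mark 2-fold. The 14 genes at the upper right are at least 2-fold higher on both pairs, Pcp2 is the one at least 2-fold lower on both, and Ttr lies at 1.88 and -5.74.

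Controls for sex and strain background did not separate the sham samples. The 8 compared genes of the sex-linked list had a median of -0.00039, none at 2-fold: Ddx3y, on the Y chromosome, read 53.8 and 69.2, and Xist, the RNA of the inactive X chromosome, was below background on all 4 arrays. The 7 compared genes of a list known to vary between laboratory strains had a median of -0.014 and lay between -0.14 and 0.14.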

How the data were processed

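RNA of whole brain slices was labelled with Cy3 and hybridised to one-colour Agilent mouse arrays of 1 slide, 1 array per group. Per the file headers, the authors' scanner files give each spot an intensity from which Agilent Feature Extraction (version 10.7.1.1) had removed background and spatial trend, on a linear scale and not yet normalized between arrays. The deposited series table holds a linear signal that the values showed to be this intensity divided by a constant per array for at least 99.95% of probes (tolerance 0.1%); it served as an alternative.

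Spots of a probe were averaged without outlier spots, log2-transformed and reduced by the array's 75th percentile (python 3.11.15, pandas 2.3.3). Probes were named by accession through RefSeq (GRCm38.p6): 32994 had 1 symbol and 23611 none. Where a gene had several probes, the brightest by mean of the 4 tissue arrays was used. Bounds were measured from the lowest level well above background on the dim array, or from the dim value itself where that was greater. The number of arrays limits the precision: no test was possible.

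Alternatives were other scaling points, quantile and loess normalization, normexp (limma 3.58.1 in R 4.3.3, offset 50, run on the median signals because the scanner files hold no mean signal), other filters on dim probes, other choices of probe and the series table. The counting was tested on simulated data.

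The members, the 52 gene lists (852 symbols, 840 with a probe) and the rule for named genes were chosen with earlier results of these data known. The rule took the 15 highest and 15 lowest measured differences, the 5 largest bounds each way, genes with all of several probes past 2-fold, the 8 largest of both pairs, up to 4 members per list and 13 fixed genes, of which Nnt had no named probe. Ccdc22, Flicr, Syp, Cacna1f, 2010204K13Rik, Tgtp2, Nlrc5, Cxcr2, Cd3e, Cd4, Aqp1, Aqp4, Ngp, Ltf, Mmp8 and Camp were named after their values were seen. Some genes that the rule names are not reported here.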

Additional observations from a re-analysis of the deposited data

Results flagged for a closer look

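The choroid plexus carrier gene Ttr was 1.88 higher in DEREG on the log2 scale after sham (93.9 and 345) while its log2 difference after ischemia was -5.74 (26706 and 499.8), so the 2 pairs of arrays went opposite ways. The choroid plexus list did the same, with a median of 0.61 after sham over 11 genes and -2.43 after ischemia over 13. With 1 array per group the difference between the pairs was not tested, and how much plexus each slice held was not tested.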

How the results depend on the processing

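No paired analysis was possible because each group has 1 array, and for the same reason no replicate could be left out. None of the 53 named genes past 2-fold changed direction under the 10 alternatives. Normexp gave 11 genes higher and 2 lower (84.6% higher, against 56.8% of 96 and 73), 4 genes past 2-fold in both pairs against 15, an SD of 0.138 over all differences against 0.208, 5 lists with a median of at least 0.25 in size against 15, and 12 named genes past 2-fold against 53. Keeping only genes well above background on both arrays gave 44 higher and 18 lower (71.0% higher). Without a filter on dim probes the counts were 542 and 392, with 125 genes in both pairs and an SD of 0.436. The other 7 alternatives gave 79 to 105 genes higher, 70 to 83 lower and 12 to 16 in both pairs; quantile normalization alone among them gave more genes lower (82) than higher (79). Cd72, Cytl1, Hif3a, Lcn2, Lrg1, Plin4, Ppp1r3f, S100a9, Scgb3a1, Tgtp2 and Ttr were past 2-fold in all 11 settings. Ccdc22 and Nlrc5 were so in 9 of 11. Ccdc22 stayed between 0.97 and 1.04, while Nlrc5 ran from 0.32 to 1.17. Sh2d1a and Otx2 had a difference of 0 under the median over probes. The list medians of Treg core, pituitary genes and natural killer and CD8 effector cells kept their sign in 10 of 11 settings. So did those of oligodendrocyte precursors, cortical excitatory neurons and dopamine, acetylcholine and adrenaline receptors. Astrocyte, thalamic and habenular, muscle, ribosomal protein and metallothionein lists kept theirs in 9 of 11. Oligodendrocyte and myelin, sex-linked and growth factor lists did so in 8 of 11, and all other lists in 11. Dim genes limit the counts: at a mean signal under 100 the SD was 0.35.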

Other observations

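Several genes outside the groups above stood apart after sham. Avp, the vasopressin hormone of hypothalamic neurons, read 493 in WT sham and 276 in DEREG sham (log2 difference -0.84), and 270 and 2392 on the ischemia pair (3.15). Nms, the peptide neuromedin S of the suprachiasmatic nucleus, had a log2 difference of -0.99 after sham. Micalcl read 24.0 and 65.3 (1.45) and Slc26a8, an anion transporter best known from sperm, 14.7 and 37.6 (1.36). Bpifb6, of a family of lipid-binding proteins, read 22.2 and 59.3 (1.41). All of these except Avp were dim, and each value rests on 1 array per genotype.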
